A study of Mus musculus with 4 samples.

Results

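The genes of oxidative phosphorylation (OXPHOS) were examined cell type by cell type in single-cell RNA sequencing of mouse liver. Members were chosen by symbol alone, as the genes whose names mark them as subunits of complexes I to V or as proteins named with them. They numbered 107 of the 32285 genes in the deposited matrices, 94 encoded in the nucleus and 13 in mitochondrial DNA (mtDNA). Nuclear members were placed by symbol alone, 38 in complex I, 8 in its Ndufaf assembly factors, 4 in complex II, 8 in complex III, 11 in complex IV, 17 in complex V and 8 as tissue isoforms. Ndufa4 and the non-coding Ndufb1-ps were thus counted in complex I for their symbols. The mtDNA members are 7 genes of complex I, 1 of complex III, 3 of complex IV and 2 of complex V.

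OXPHOS couples the oxidation of NADH and succinate to the making of ATP at the inner mitochondrial membrane. Complexes I, III and IV pump protons as electrons pass to oxygen, complex II feeds in electrons from succinate without pumping, and complex V, the ATP synthase, lets the protons flow back. Most subunits are made in the cytosol and imported, whereas a core set is transcribed and translated inside the mitochondrion, so complexes I, III, IV and V need both genomes. Hepatocytes are rich in mitochondria, and neutrophils are known to have few and to rely on glycolysis.

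All mice were male C57BL/6J, aged 5 weeks at purchase, and carried no engineered allele named in the labels. The NCD group ate normal chow, and the HFD group ate a 60% fat diet for 14 weeks to induce fatty liver disease. The JQF group had the same high-fat diet and then a daily preparation of medicinal herbs (JQF) by gavage for 8 weeks, while NCD and HFD mice were gavaged with water. All groups were sampled after these 8 weeks. There was 1 library for NCD, 2 for HFD and 1 for JQF, made with a 3′ droplet kit that counts molecules by unique molecular identifiers (UMIs), so that diet or treatment and the single library that stands for it cannot be told apart.

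After filtering for at least 500 genes and at most 20% of UMIs from mtDNA genes, 5975 cells remained in NCD, 6516 and 10259 in the HFD libraries and 8540 in JQF, with a median of 13081, 7608 and 7874, and 8884 UMIs per cell. Marker genes placed 95% to 97.9% of these cells in 13 types. The labels call the material immune cells and also name haematopoietic stem cells, whereas endothelial cells, hepatocytes, stellate cells and epithelial cells were present as well. NCD stood apart in its makeup, with 3917 endothelial cells of 5975 and 171 macrophages. Pairs of libraries shared 12 to 27 cell barcodes. The 9 types tested were T cells, natural killer (NK) cells, B cells, dendritic cells (DC), macrophages, monocytes, neutrophils, endothelial cells and hepatocytes, which had at least 50 cells in every library, and 4 more were only described. Those 4 held few cells in some libraries. Stellate cells numbered 13 in NCD, 2 and 21 in the HFD libraries and 42 in JQF. Plasma cells numbered 13, 10 and 34, and 85, and epithelial cells 30, 228 and 123, and 399. Hepatocytes were few, at 150 in NCD, at 59 and 268 in the HFD libraries and at 76 in JQF.

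The level of a gene is given in CPM, its UMIs per 1000000 UMIs of all the cells of that type in that library. With summed nuclear members, hepatocytes stood highest and neutrophils lowest among the 13 types. Hepatocytes averaged 37657 CPM ± 17856 (SD, n = 4 libraries), epithelial cells 21025 ± 7865, DC 13940 ± 3664 and monocytes 13471 ± 3755. Lower down stood endothelial cells at 9911 CPM ± 2263, B cells at 9309 ± 2464 and neutrophils at 5628 ± 898. Plasmacytoid DC, DC, monocytes, macrophages, T cells and NK cells averaged between 12409 and 14076 CPM. The SD over libraries holds the low NCD values that all types share, so it is no measure of the difference between types. Comparisons of the tested types with the library as a term are given below. Summed mtDNA members gave another order: hepatocytes 68230 CPM ± 19854, epithelial cells 49463 ± 7790, stellate cells 40093 ± 16924, macrophages 37845 ± 1544, endothelial cells 37176 ± 8194, plasmacytoid DC 36345 ± 2266, B cells 34378 ± 3357, DC 21720 ± 1390 and neutrophils 13595 ± 1321. Endothelial cells thus ranked 10 of 13 in the nuclear sum and 5 in the mtDNA sum, B cells 12 and 7, and DC 4 and 11. Over the 36 type and library sums of the tested types the log2 levels of the nuclear and mtDNA members had a Pearson correlation of 0.64, given as a description because the points share libraries and depth.

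**Figure D1:**
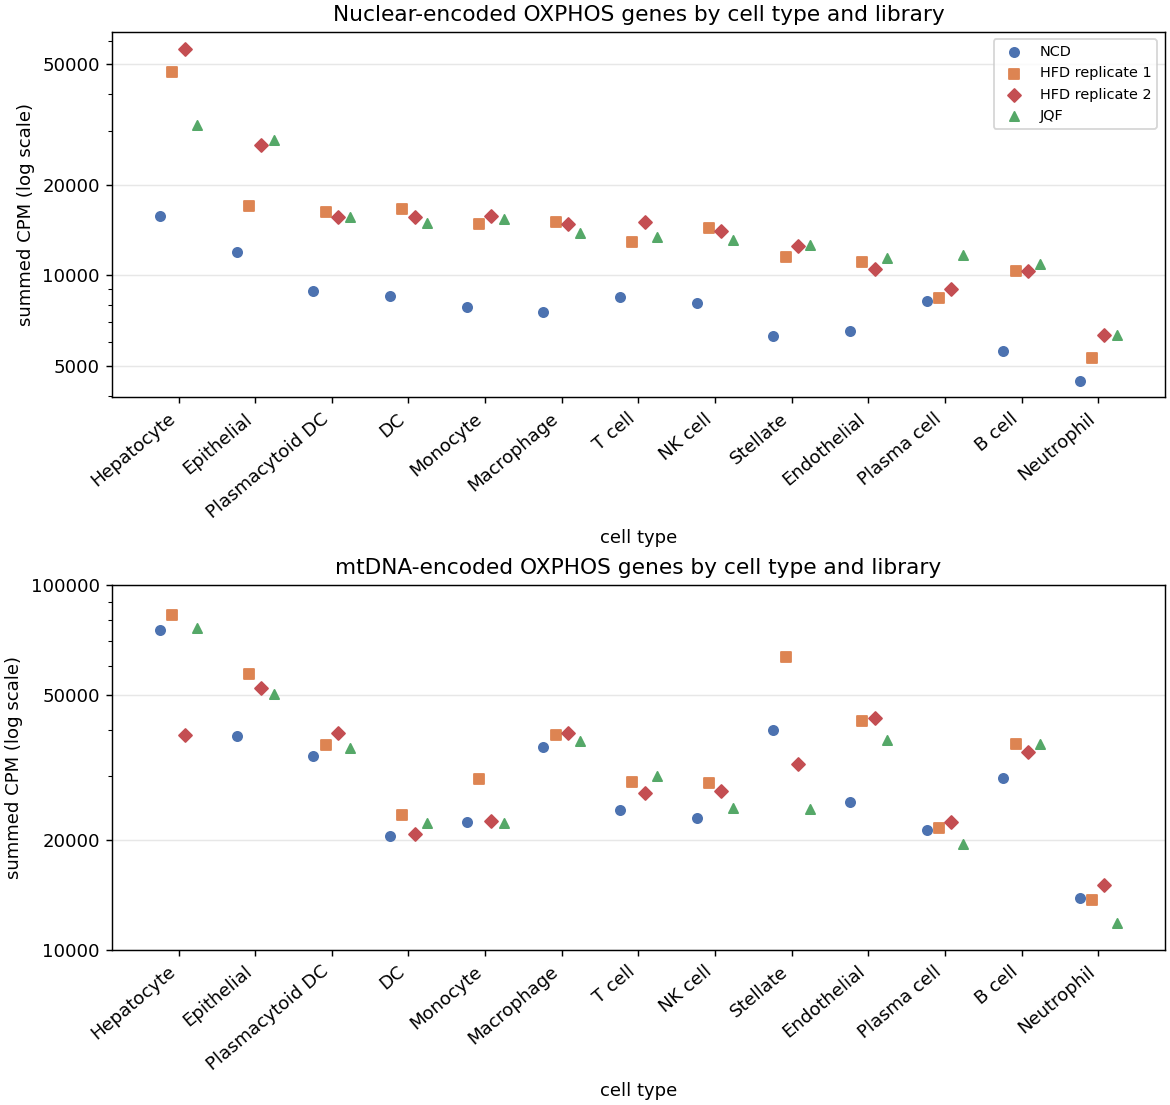
Summed CPM of the nuclear members (upper panel) and of the mtDNA members (lower panel) in each of 13 cell types, on log axes, with 1 point per library. In the upper panel the NCD point is the lowest in every type, while in the lower panel it is the lowest in 8 of 13 types.

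The summed nuclear members were lower in NCD than in every other library, in each type. In T cells the nuclear members summed to 8502 CPM in NCD, 12917 and 15006 in the HFD libraries and 13451 in JQF. In macrophages they summed to 7545 CPM in NCD, 15028 and 14834 in the HFD libraries and 13770 in JQF. In hepatocytes they summed to 15720 CPM in NCD, 47098 and 56314 in the HFD libraries and 31494 in JQF. NCD lay below the other 3 libraries in all 13 types, and HFD exceeded NCD by a factor of 1.06 in plasma cells to 3.29 in hepatocytes. The types that were only described weigh less in such counts, with as few as 2 stellate cells in HFD replicate 1. Cells were kept by their share of mtDNA UMIs, so every mtDNA sum, rank and test given here is bounded by that filter. Barcodes with hepatocyte markers over the 20% limit, which were left out, equalled 51.3% of the kept hepatocytes in NCD. They equalled 25.4% and 5.22% in the HFD libraries and 43.4% in JQF. The mtDNA sum moved by a factor of 0.807 in hepatocytes to 1.68 in endothelial cells. Its factor was the smaller of the pair in 12 of 13 types, endothelial cells (1.68 against 1.65) being the exception, and the direction in hepatocytes turned with the kind of barcode, as given with the hepatocyte results. The mtDNA to nuclear ratio was lower in both HFD libraries than in NCD in every type except endothelial and epithelial cells, where the HFD libraries lay on both sides. In macrophages it was 4.77 in NCD, 2.58 and 2.66 in the HFD libraries and 2.71 in JQF, and in endothelial cells 3.88, 3.83 and 4.09, and 3.28.

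The direction of the nuclear sum was also present outside the cells and in other short, abundant messages, and these values stand beside every HFD against NCD result that follows. In droplets of at most 100 UMIs, which hold free RNA, the nuclear members made up 8720 CPM in NCD, 17314 and 21137 in the HFD libraries and 18512 in JQF. The mtDNA members in those droplets went the other way between the diets, at 89936 CPM in NCD, 61824 and 54330 in the HFD libraries, and were highest in JQF at 149567. Cytosolic ribosomal protein genes in those droplets were at 54475 CPM in NCD, 128093 and 120024 in the HFD libraries and 126429 in JQF. Within cells, ribosomal protein genes were lower in NCD than in the other 3 libraries in 12 of 13 types, with plasma cells overlapping. In macrophages they were at 40592 CPM in NCD, 96637 and 89112 in the HFD libraries and 92070 in JQF. Nuclear OXPHOS UMIs per 100 ribosomal protein UMIs differed less. Over the tested types the HFD mean ran from 0.801 of NCD in endothelial cells to 1.43 times NCD in monocytes and 1.54 times in hepatocytes. T cells, near the middle at 1.05, held 7.47 in NCD, 7.66 and 8.06 in the HFD libraries and 6.97 in JQF. This ratio was higher in both HFD libraries than in NCD in T cells, NK cells, B cells, DC, monocytes and hepatocytes. It was lower in both in macrophages (18.6 in NCD against 15.6 and 16.6), endothelial cells (17.0 against 13.6 and 13.6) and neutrophils (21.5 against 20.6 and 18.2). The part of these library-wide differences in the gene results was not tested.

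**Figure D2:**
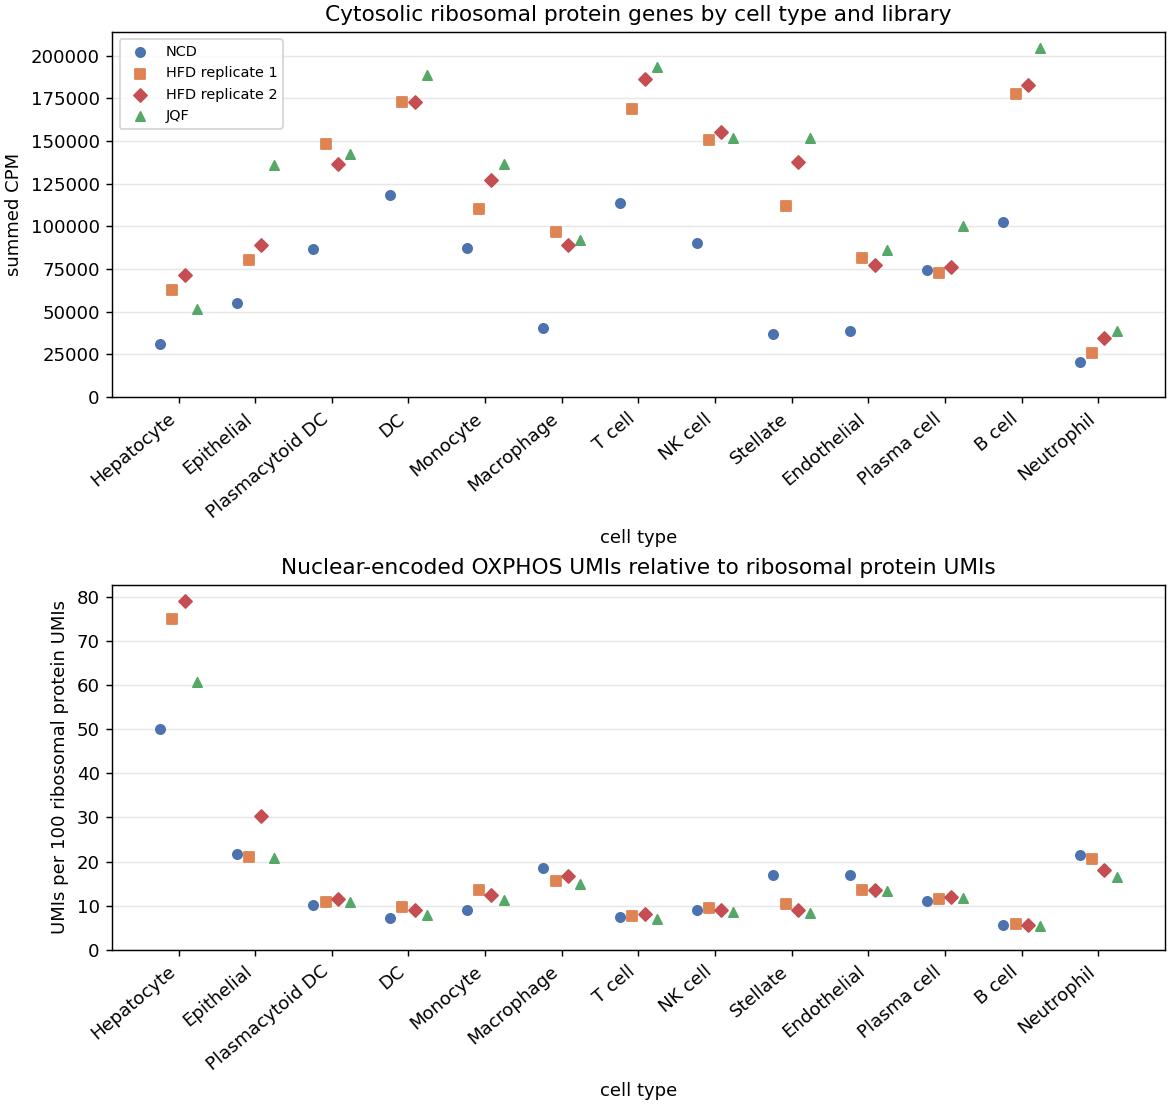
Summed CPM of cytosolic ribosomal protein genes (upper panel) and nuclear OXPHOS UMIs per 100 ribosomal protein UMIs (lower panel) by cell type, with 1 point per library. NCD lies lowest in the upper panel in all types but plasma cells, whereas in the lower panel it lies above both HFD libraries in macrophages, neutrophils, stellate and endothelial cells.

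To ask which members differed between diets, summed counts per library and type were compared between HFD and NCD with edgeR's quasi-likelihood test and Benjamini-Hochberg adjustment over all genes tested in a type. Of 784 pairs of a nuclear member and a type, 320 were higher in HFD and 1 was lower, at an adjusted p under 0.05. The fold change was above 0 in 736 pairs (93.9%). Over all genes, 6.67% of 109812 pairs were higher and 8.4% lower, against 40.8% higher for the nuclear members. Without hepatocytes 254 of 697 pairs (36.4%) were higher. The test has 1 residual degree of freedom, from the HFD pair, and pools the variance of each gene with a trend over all genes. Where finite, the prior degrees of freedom ran from 3.28 in macrophages to 15.3 in endothelial cells. They were infinite in neutrophils and hepatocytes, where the p-values rest on the trend alone. No p-value measures a spread within NCD or JQF.

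In the main edgeR fit the share of members higher in HFD exceeded that of all genes in 8 of the 9 types, neutrophils being the exception. This number of types depends on the setting. The count higher was 0 in endothelial cells and hepatocytes when libraries were thinned to the lowest total, and 2 in NK cells with DESeq2. In macrophages 55 of 90 nuclear members were higher in HFD (all genes 5.68% higher, 3.96% lower), with a median log2 fold change of 1.11 against 0.05 over all genes. Among the 79 nuclear members at a mean of 20 CPM or more there, the lowest edgeR adjusted p was 0.0359, close under the threshold. In DC 55 of 89 were higher (10.1% and 12.7%; median 0.78 against 0.11), and in B cells 45 of 87 (8.17% and 10.8%; 0.86 against 0.07). In the main edgeR fit each of these 3 types had more than 50% of its tested members called. The count higher ran from 47 to 80 in macrophages, 34 to 69 in DC and 10 to 53 in B cells over the alternative settings. DESeq2 gave the lowest counts in DC and B cells, under 50% of the members there. In monocytes 36 of 88 were higher (all genes 5.01% and 6.83%; median 0.96 against 0.20), in NK cells 20 of 86 (3.74% and 8.59%; 0.60 against 0.12), and in T cells 16 of 89 (2.43% and 5.2%; 0.59 against 0.08). Over the alternative settings these counts ran from 33 to 57 in monocytes, 2 to 38 in NK cells and 12 to 48 in T cells. In endothelial cells 22 of 86 were higher (5.41% and 6.57%; 0.50 against 0.01), and in neutrophils 5 of 82 were higher and 1 lower (6.74% and 5.33%; 0.36 against 0.11, and 0.19 without HFD replicate 2). The neutrophil share was near that of all genes. The makeup of the T cell and macrophage classes also differed between libraries. Cells with Cd8 markers were 31.7% of T cells in NCD, 52.2% and 61.1% in the HFD libraries and 23.0% in JQF. Within them the nuclear members summed to 9000 CPM in NCD, 13104 and 16114 in the HFD libraries and 13207 in JQF, and within those with Cd4 markers to 8495, 13546 and 13113, and 14323. NCD was the lowest in both. The share of macrophages with Kupffer markers was 82.5% for NCD, 12.5% and 35.2% for the HFD libraries and 37.6% for JQF. In hepatocytes 66 of 87 were higher (14.9% and 17.9%; 2.03 against −0.06).

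**Figure D3:**
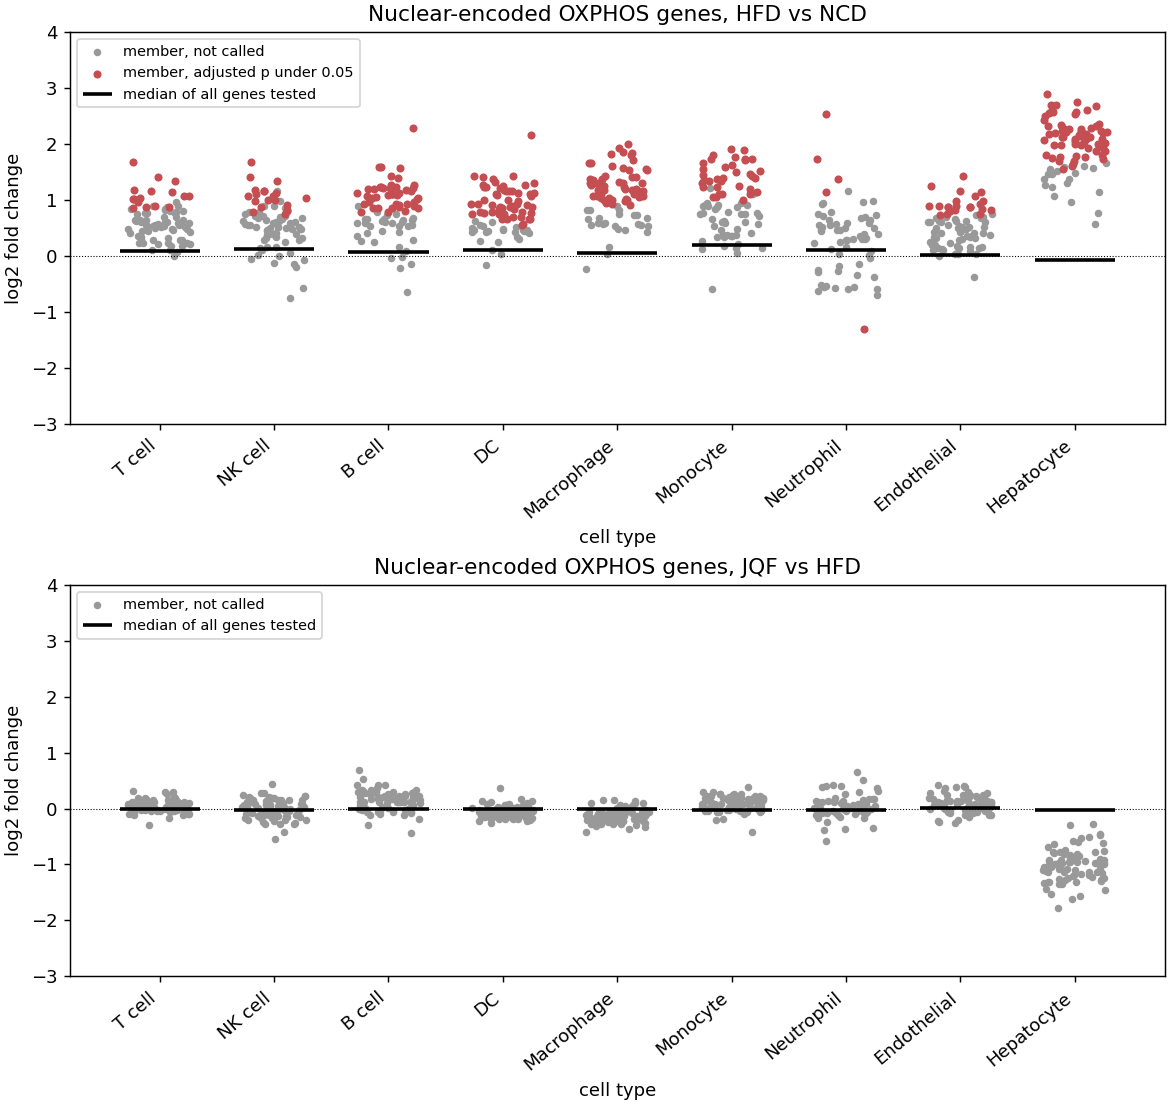
Log2 fold change of each nuclear member with a mean of at least 20 CPM, HFD against NCD (upper panel) and JQF against HFD (lower panel), by cell type; red points passed an adjusted p of 0.05 and the black bar is the median of all genes tested. In the upper panel most points lie above the bar in every type, and in the lower panel no point is red.

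By complex as placed by symbol, the share of pairs higher in HFD was 47.1% for complex I (161 of 342), 41.7% for complex III (30 of 72), 48.5% for complex IV (48 of 99) and 44.4% for complex V (68 of 153). It was 16.7% for complex II (6 of 36) and 8.96% for the Ndufaf assembly factors (6 of 67, with 1 lower), the last being near the 6.67% of all genes. Complex II, whose 4 subunits are all nuclear and also serve the tricarboxylic acid cycle, was thus called less often, and the difference between complexes was not tested. Without hepatocytes the shares were 42.8%, 37.5%, 46.6% and 39.0% for complexes I, III, IV and V, and 9.38% and 5.0% for complex II and the assembly factors, against 5.9% higher and 7.51% lower over all genes.

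Atp5k, a small membrane subunit that helps ATP synthase form dimers, was called in all 9 types in the main edgeR fit. In B cells it was at 21.1 CPM in NCD, 100.6 and 116 in the HFD libraries and 110 in JQF, and the log2 fold change was 2.29 (SE 0.27, edgeR adjusted p = 0.000432). In T cells it was at 49.8 CPM in NCD, 140 and 185 in the HFD libraries and 143 in JQF (log2 fold change 1.68, SE 0.26, edgeR adjusted p = 0.0186). In DC it was at 36.6 CPM in NCD, 185 and 169 in the HFD libraries and 156 in JQF (log2 fold change 2.16, SE 0.18, edgeR adjusted p = 0.00191). NCD was apart from the other 3 libraries each time, and over the 9 types the log2 fold change ran from 1.43 in endothelial cells to 2.74 in hepatocytes. Ndufb1-ps, annotated as a non-coding transcript at the site of the complex I gene Ndufb1, was also called in all 9 types, from 1.12 to 2.30. In neutrophils, endothelial cells and hepatocytes the calls of Atp5k and Ndufb1-ps did not hold under every alternative setting. The other members called in most types were Atp5e and Atp5j2 of the ATP synthase and Ndufb3 of complex I, in 8 types each. Cox6b1, Cox7a2 and Cox7c of cytochrome c oxidase, Uqcr11 and Uqcrb of complex III, and Ndufa1, Ndufa2, Ndufa4, Ndufa13, Ndufb2, Ndufc1 and Ndufs5 were called in 7 types each.

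Several core subunits were called in few types or in none, but core subunits were not counted as a class. Sdha, the flavoprotein of complex II that oxidises succinate, was called in no type. In T cells it was at 77.9 CPM in NCD, 86.1 and 86.3 in the HFD libraries and 74.1 in JQF (log2 fold change 0.11, SE 0.17, edgeR adjusted p = 0.709). Ndufs1, the largest iron-sulphur subunit of complex I, was at 34.1 CPM in NCD macrophages, 34.1 and 30.9 in HFD and 28.6 in JQF (0.04, SE 0.16, edgeR adjusted p = 0.980). The NCD value of Ndufs1 lay just above that of HFD replicate 1 there. Atp5a1, the alpha subunit of the ATP synthase, and Uqcrc2, a core protein of complex III, were called in no type, with median log2 fold changes of 0.36 and 0.26 over the types. Atp5b, the catalytic beta subunit, Ndufv1, which binds NADH, Sdhb and Uqcrc1 were called in 2 types each, with medians of 0.54, 0.46, 0.14 and 0.40. Cox4i1, a regulatory subunit of cytochrome c oxidase, was called in macrophages and in no other type, at 333 CPM in NCD, 648 and 643 in the HFD libraries and 650 in JQF (log2 fold change 1.06, SE 0.19, edgeR adjusted p = 0.0477), and its fold change was positive in all 9 types. Uqcrfs1, the Rieske protein of complex III, was called in 1 type, and Cox5a and Cox6a1 of complex IV in 3 types each. Ndufab1, the mitochondrial acyl carrier protein that complex I also holds, was called in 6 types. Cox7a2l, a factor for respiratory supercomplexes, was called in 1.

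Over all types together the shorter members were called more often, and this difference was not tested. Members with at most 1559 bp of exon sequence were higher in HFD in 190 of 364 pairs (52.2%), and longer members in 130 of 420 (31.0%). Without hepatocytes these shares were 49.2% and 25.4%. By type the share was higher for shorter members in 7 of the 9, for example 58.5% against 25.5% in monocytes. In hepatocytes 31 of 41 shorter and 35 of 46 longer members were called, with medians of 2.03 in both, and in neutrophils 2 of 37 and 3 of 45. Genes outside the set were split by their span in the genome instead of by exon length. Split at a span of 12075 bp, the limit under which 75% of the members lie, shorter genes had a higher median log2 fold change than longer genes in every tested type, for example 0.41 against −0.07 in T cells, 0.54 against −0.10 in B cells and 1.27 against −0.51 in hepatocytes, where the members showed no such difference by exon length. Whether intronic reads were counted is not given in the sources used here. The part of gene length in the result was not tested.

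Neutrophils held the only nuclear member called lower in HFD. Ndufaf7, a methyltransferase needed to assemble complex I, was at 68.9 CPM in NCD neutrophils, 35 and 20.8 in HFD and 38.9 in JQF, and the log2 fold change was −1.30 (SE 0.40, edgeR adjusted p = 0.0155, with 0.0121 to 0.322 over the alternative settings). Atp5g1, which encodes the rotating c subunit of the ATP synthase, was at 5.04 CPM in NCD neutrophils, a level of few UMIs, and 24.8 and 34.7 in HFD. It passed (2.55, SE 0.70, edgeR adjusted p = 0.00476, with 0.00502 to 0.271 over the alternative settings). With cycling cells left out 0 nuclear and 0 mtDNA members were called in neutrophils. In macrophages the largest differences were those of Atp5e, at 144 CPM in NCD, 573 and 495 in the HFD libraries and 450 in JQF (2.00, SE 0.21, edgeR adjusted p = 0.0383), and of Atp5g1 (1.94) and Atp5j2 (1.86). In monocytes they were those of Ndufab1 (1.91), Atp5md (1.90), a small subunit of the ATP synthase, and Ndufs3 (1.81), a core subunit of complex I. In NK cells Ndufb3 (1.42) and Ndufa3 (1.33) followed Atp5k, and in T cells Ndufa3 (1.42) and Ndufb1-ps (1.34). In DC Ndufa4 and Atp5j2 followed, both at 1.43, and in B cells Uqcr11 (1.59) and Uqcrb (1.58).

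In hepatocytes the difference could not be separated from the kind of barcode captured. Barcodes that passed the hepatocyte markers but had under 0.5% of UMIs from mtDNA genes made up 32.7% of the kept hepatocytes in NCD, 62.7% and 82.1% in the HFD libraries and 22.4% in JQF. In HFD these barcodes held 68923 and 69670 CPM of nuclear members, against 272 and 557 CPM of mtDNA members and 47.6 and 293 CPM of the nuclear RNA Malat1. In NCD they held 6424 CPM of nuclear members and 31729 CPM of Malat1. Among barcodes with 0.5% to 20% mtDNA UMIs the nuclear members were at 18243 CPM in NCD, 36902 and 33603 in the HFD libraries and 25752 in JQF, and NCD was the lowest there as well. The mtDNA members of that class were at 95248 CPM in NCD, 121078 and 103980 in the HFD libraries and 94129 in JQF, so that HFD lay above NCD, opposite to all hepatocytes pooled. Calls in hepatocytes fell from 66 to 6 when the 5% of cells with most UMIs in each type and library were left out and to 0 when libraries were thinned to the lowest total, and thinning also took the endothelial calls from 22 to 0. Ndufa8 of complex I (62.6 CPM in NCD, 337 and 437 in the HFD libraries and 206 in JQF; log2 fold change 2.89, SE 0.72, edgeR adjusted p = 0.000743) and the assembly factor Ndufaf3 (2.70) led the hepatocyte list with Atp5k. Ndufaf3 was at 6.52 CPM in NCD, where 3 UMIs are 3.91 CPM.

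Other genes of mitochondrial metabolism were compared in the same fits. Of 276 pairs for electron carriers and assembly factors outside the set, 55 were higher in HFD (19.9%) and 1 lower, and of 90 for transport and coupling proteins 22 were higher (24.4%), where all genes gave 6.67% higher and 8.4% lower. Of 141 pairs for the tricarboxylic acid cycle 15 were higher (10.6%) and 2 lower, 9 of the higher ones in hepatocytes. Outside hepatocytes the cycle had 4.8% of its pairs higher, below the 5.9% of all genes. Of 107 pairs for the genes that copy mtDNA, transcribe it or keep its RNA stable 11 were higher (10.3%) and 5 lower (4.67%). The higher ones were Ssbp1, which binds single-stranded mtDNA during its replication, in 5 types, Slirp, which stabilises mitochondrial mRNA, in 4, and Polg, the catalytic subunit of the mtDNA polymerase, and Mterf1a in DC. The lower ones were Polg2, the accessory subunit of that polymerase, in 4 types, with log2 fold changes from −3.70 in endothelial cells to −0.69 in DC, and Mterf3 in DC. Among these 16 calls, 10 were thus of replication genes. None of 76 pairs for regulators of mitochondrial biogenesis was higher and 6 were lower (7.89%, near the share of all genes), 5 of them Gabpb1, which encodes a subunit of the nuclear respiratory factor GABP, with log2 fold changes of −1.17 in B cells (edgeR adjusted p = 0.00592), −1.33 in DC (0.00295), −1.58 in T cells (0.00694), −2.60 in NK cells (0.000117) and −2.70 in hepatocytes (2.85e-05), and 1 of them Nrf1 in hepatocytes (−2.07, edgeR adjusted p = 0.00132). Cytosolic ribosomal protein genes were higher in 228 of 811 pairs and lower in 33. Genes known to respond to tissue dissociation, such as immediate early genes, were lower in 30 of 72 pairs and higher in 1, and cycling genes were higher in 20 of 66.

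The promoters of members were searched for motifs of factors known to regulate respiratory genes. RefSeq promoters, from 250 bases before to 50 after the start, matched 75 members and 27025 genes in all. On either strand, the NRF1 letters GCGCATGC were in 16% of member promoters and 3.05% of all, the YY1 letters AAGATGGC in 13.3% and 3.19%, the GABPA letters CCGGAAGT in 6.67% and 4.31%, and the estrogen-related receptor letters TCAAGGTCA in 2.67% and 0.466%. At least 1 of the 4 motifs was in 37.3% of member promoters and 10.4% of all. A match is a description and not a bound site. Of members called in 7 to 9 types, 4 of 14 held a motif (28.6%). So did 13 of 32 called in 3 to 6 types (40.6%) and 11 of 27 called in 0 to 2 (40.7%). Atp5e and Ndufb3, called in 8 types each, held none, and Sdhb and Uqcrc1, called in 2 types each, held NRF1 letters. These groups are small, and a link between motifs and calls was not tested. To show where such letters lie, the promoters of the 4 often called members that hold them (Atp5k, Atp5j2, Uqcr11 and Ndufc1) and of Sdha, which was called in no type, are printed 5′ to 3′ on the minus strand of GRCm38.p6 (RefSeq), with motif letters in capitals. The NRF1 letters in Atp5k are palindromic and match on both strands in overlapping positions, Uqcr11 holds GABPA and NRF1 letters, Atp5j2 and Ndufc1 hold YY1 letters just after the start, and Sdha holds none of the 4.
Atp5k, chr5:108434350-108434649: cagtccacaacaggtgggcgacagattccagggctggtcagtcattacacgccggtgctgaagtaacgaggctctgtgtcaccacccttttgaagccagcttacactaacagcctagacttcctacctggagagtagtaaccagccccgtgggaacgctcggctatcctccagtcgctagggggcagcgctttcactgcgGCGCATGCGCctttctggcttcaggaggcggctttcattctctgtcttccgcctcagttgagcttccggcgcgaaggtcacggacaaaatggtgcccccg
Atp5j2, chr5:145191492-145191791: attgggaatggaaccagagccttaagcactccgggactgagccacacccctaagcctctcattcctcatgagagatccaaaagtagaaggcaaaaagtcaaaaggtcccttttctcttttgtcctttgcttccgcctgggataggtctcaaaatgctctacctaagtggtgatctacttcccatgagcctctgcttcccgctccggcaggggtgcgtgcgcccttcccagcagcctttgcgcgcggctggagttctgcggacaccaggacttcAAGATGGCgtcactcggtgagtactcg
Uqcr11, chr10:80406772-80407071: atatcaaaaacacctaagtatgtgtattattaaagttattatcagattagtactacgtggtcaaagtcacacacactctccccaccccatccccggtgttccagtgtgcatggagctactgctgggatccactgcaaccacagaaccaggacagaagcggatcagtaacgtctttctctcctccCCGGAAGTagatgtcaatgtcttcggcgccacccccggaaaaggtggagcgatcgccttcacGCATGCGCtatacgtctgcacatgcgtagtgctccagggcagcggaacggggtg
Ndufc1, chr3:51408906-51409205: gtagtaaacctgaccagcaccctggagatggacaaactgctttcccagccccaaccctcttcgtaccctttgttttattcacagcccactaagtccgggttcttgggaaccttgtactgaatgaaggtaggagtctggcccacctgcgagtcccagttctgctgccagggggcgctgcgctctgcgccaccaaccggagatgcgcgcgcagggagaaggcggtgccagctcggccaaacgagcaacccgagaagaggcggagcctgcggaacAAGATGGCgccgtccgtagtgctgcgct
Sdha, chr13:74350191-74350490: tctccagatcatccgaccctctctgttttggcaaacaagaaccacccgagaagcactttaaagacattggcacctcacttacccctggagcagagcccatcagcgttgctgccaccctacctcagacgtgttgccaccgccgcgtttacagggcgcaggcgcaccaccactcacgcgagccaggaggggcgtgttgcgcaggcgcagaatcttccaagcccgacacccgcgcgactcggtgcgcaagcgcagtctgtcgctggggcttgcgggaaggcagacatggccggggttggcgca

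The mtDNA members did not move as a block. Of 117 pairs of a member and a type, 5 were higher in HFD than NCD and 13 lower by the same edgeR test. They were 9 and 14 when counts were scaled to library totals alone, and 9 and 8 with DESeq2, so the balance depends on the method. The shares of the main edgeR fit, 4.27% and 11.1%, were near those of all genes. All 5 higher pairs were mt-Co1, which encodes the catalytic subunit of cytochrome c oxidase. In endothelial cells mt-Co1 was at 2929 CPM in NCD, 8403 and 8926 in the HFD libraries and 6956 in JQF (log2 fold change 1.41, SE 0.29, edgeR adjusted p = 0.00423). In B cells it was at 2777 CPM in NCD, 6740 and 6368 in the HFD libraries and 5997 in JQF (1.17, SE 0.19, edgeR adjusted p = 0.00204). It also passed in NK cells, DC and neutrophils and was above 0 in all 9 types, while its neighbour in complex IV, mt-Co2, was positive in all 9 and passed in none. mt-Cytb of complex III, mt-Atp6 and mt-Co3 passed in none either. Thinning ended the endothelial call of mt-Co1, whose adjusted p ran from 8.33e-06 to 0.0649 over the alternative settings.

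Of the 13 lower pairs, 7 were mt-Atp8, a small subunit of the ATP synthase stalk, 4 were mt-Nd6, and mt-Nd2 and mt-Nd5 of complex I were lower in neutrophils. In macrophages mt-Atp8 was at 366 CPM in NCD, 82.5 and 57.2 in the HFD libraries and 48.8 in JQF (log2 fold change −2.29, SE 0.24, edgeR adjusted p = 0.0383). In neutrophils it was at 126 CPM in NCD, 39.5 and 25.1 in the HFD libraries and 16.2 in JQF (−1.96, SE 0.36, edgeR adjusted p = 4.14e-06, with 3.05e-06 to 0.275 over the alternative settings). The NCD library was the highest in both. The mt-Atp8 calls in NK cells, endothelial cells and hepatocytes did not hold under every alternative setting either. mt-Nd6, the only member encoded on the light strand (minus strand, chromosome M 13552 to 14070), was at 52.1 CPM in NCD neutrophils, 9.60 and 14.97 in HFD and 9.73 in JQF (−2.08, SE 0.47, edgeR adjusted p = 0.000365, with 0.000229 to 0.271 over the alternative settings). It also passed in NK cells, B cells and hepatocytes, but of its calls only that in NK cells held over the alternative settings. In endothelial cells the values of mt-Nd6 went the other way, at 54.1 CPM in NCD, 83.4 and 80.2 in the HFD libraries and 41.4 in JQF (0.44, edgeR adjusted p = 0.287).

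**Figure D4:**
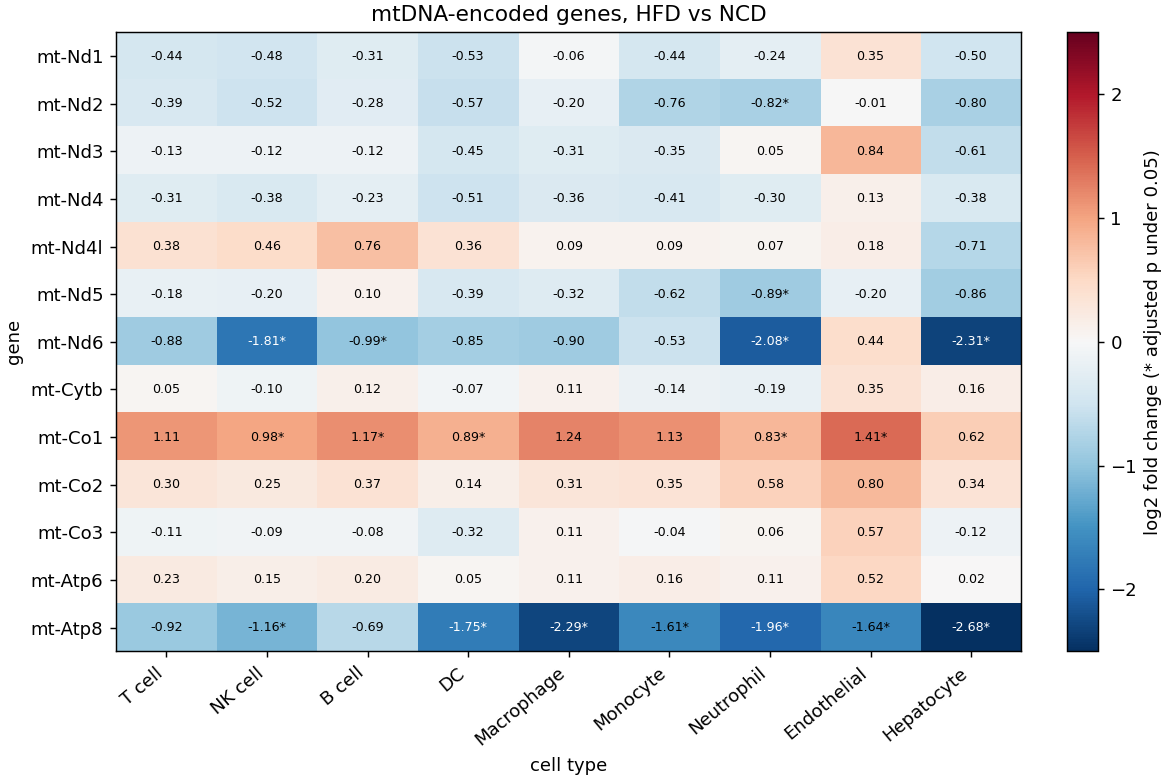
Log2 fold change of the 13 mtDNA members between HFD and NCD in 9 cell types, with an asterisk at an adjusted p under 0.05. mt-Co1 is positive and mt-Atp8 negative in every column, and most genes of complex I are below 0 outside endothelial cells.

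Ratios between mtDNA members set NCD apart in all 9 types. They were built on mt-Co1 and mt-Atp8, the members called most often in each direction above, so they are a description and no separate support. The NCD values of all 9 types come from 1 library. The UMIs of mt-Co1 per UMI of mt-Nd1, the complex I gene, ran from 1.53 to 1.89 over the 9 types in NCD, from 3.90 to 5.14 and 3.53 to 5.56 in HFD, and from 2.82 to 3.91 in JQF. NCD thus did not overlap with any other library. Type by type, JQF lay below both HFD libraries in 7 of 9 types, for example at 2.82 against 4.54 and 4.11 in B cells, and between them in hepatocytes and neutrophils. mt-Atp8 per 1000 UMIs of mt-Atp6 ran from 18.8 in B cells to 64.2 in hepatocytes in NCD, from 9.61 to 14.9 and 6.30 to 10.1 in HFD, and from 5.5 to 9.98 in JQF. This ratio varied among types within NCD and lay higher there than in any other library. In JQF it was below both HFD libraries in 7 of 9 types, for example at 6.50 against 12.5 and 7.82 in B cells, and between them in hepatocytes and NK cells. The difference between JQF and HFD in these ratios was not tested, and JQF was 1 library. Both genes are read from a shared transcript, and mt-Atp8 (chromosome M 7766 to 7969) overlaps the start of mt-Atp6 by 43 bases, shown in capitals with 20 bases on each side (GRCm38, GENCODE) because reads from that stretch cannot be assigned to either gene.
mt-Atp8 and mt-Atp6, chrM:7907-7989: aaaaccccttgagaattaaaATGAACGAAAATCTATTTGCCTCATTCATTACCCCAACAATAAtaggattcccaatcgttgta

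JQF was then compared with HFD, the libraries of which also serve in the comparison with NCD. No nuclear member was called in any type, 0 of 784 pairs, where all genes gave 0.857% higher and 0.216% lower. No mtDNA member was called among 117 pairs. At an unadjusted p under 0.05 edgeR counted 19 nuclear pairs, 14 of them in hepatocytes, and 9 mtDNA pairs, and DESeq2 called 0 pairs with 18 nuclear pairs at an unadjusted p under 0.05. Outside hepatocytes the median log2 fold change of the nuclear members ran from −0.12 in macrophages to 0.17 in B cells. These medians moved with the HFD library used. Without HFD replicate 1 the median was −0.10 in T cells, −0.04 in neutrophils, 0.09 in B cells and 0.05 in monocytes, and without HFD replicate 2 it was 0.20, 0.23, 0.29 and 0.21, against 0.03, 0.04, 0.17 and 0.08 with both. In NK cells, where it was 0.00 with both, it took either sign, and in endothelial cells it fell from 0.09 to 0.05 without HFD replicate 2. In DC it was −0.07 with both, −0.05 without HFD replicate 1 and −0.11 without HFD replicate 2.

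In hepatocytes the median was −0.99, and −1.16 and −0.83 without HFD replicate 1 and 2. The lowest adjusted p was that of Ndufa9, a complex I subunit, at 33.9 CPM in NCD, 115 and 172 in the HFD libraries and 57.0 in JQF (log2 fold change −1.62, SE 0.63, edgeR adjusted p = 0.0954). The share of hepatocytes with under 0.5% mtDNA UMIs, given above, also differed between JQF and HFD. Of the mtDNA members mt-Nd1 was at 1485 and 1548 CPM in HFD B cells and 2129 in JQF (0.59, SE 0.20, edgeR adjusted p = 0.260), and mt-Nd6 at 83.4 and 80.2 CPM in HFD endothelial cells and 41.4 in JQF (−0.98, SE 0.25, edgeR adjusted p = 0.152). The nuclear UMIs per 100 ribosomal protein UMIs were below both HFD libraries in JQF in 12 of 13 types, all but plasma cells, for example 7.91 against 9.62 and 9.06 in DC. Ribosomal protein CPM was above both HFD libraries in JQF in T cells, B cells, DC, monocytes, neutrophils and endothelial cells. Among the other gene lists, dissociation genes were higher in 13 of 72 pairs and lower in 1. The only calls in the list on mtDNA replication and expression were 3 of Polg2, higher in JQF in DC (1.34), endothelial cells (2.18) and NK cells (1.34). Gabpb1, lower in HFD than NCD in 5 types, was higher in JQF than HFD in NK cells (1.39, SE 0.20, edgeR adjusted p = 0.0128), the only call among the biogenesis regulators. Of the cycling genes Birc5 was lower in JQF in NK cells (−2.71) and Stmn1 in hepatocytes (−3.50), and 1 ribosomal protein gene of 811 pairs was higher.

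Cell types were compared with each other over the 4 libraries, each type against the mean of the other 8, with the library as a term in the edgeR fit. Hepatocytes had 84 of 87 nuclear members higher and 0 lower (all genes 29.9% and 31%), with complex medians from 1.34 for the assembly factors to 2.48 for complex III. Uqcrq, a small subunit of complex III, stood at 588 CPM in NCD, 2150 and 2697 in the HFD libraries and 1562 in JQF (mean 1749 ± 902, n = 4), 3.66 log2 units above the other types (SE 0.14, edgeR adjusted p = 3.14e-21). All 13 mtDNA members were higher as well. Both hepatocyte results pool the kinds of barcode described above. In HFD, barcodes with under 0.5% mtDNA UMIs held 68923 and 69670 CPM of nuclear members, against 36902 and 33603 in the class of 0.5% to 20%. The median hepatocyte had 0.029% and 0.054% of its UMIs from mtDNA members in the HFD libraries, 1.36% in NCD and 4.33% in JQF. The part of these barcodes in the contrast was not tested. Neutrophils had 72 lower and 1 higher (36.6% and 25.2%), and 11 mtDNA members lower. Without hepatocytes in the fit neutrophils had 60 of 88 lower and 10 higher (31.7% and 30.7%), and 5 mtDNA members lower. Ndufa9 was at 5.04 CPM in NCD, 2.26 and 3.74 in the HFD libraries and 5.56 in JQF neutrophils (−2.79, SE 0.33, edgeR adjusted p = 9.71e-09), while the single higher member with hepatocytes in the fit was Ndufaf7 (1.84).

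Because hepatocytes raise the mean of the other types, the remaining contrasts were also fitted without them. In the fit with hepatocytes the myeloid types stood near or below the shares of all genes. DC had 27 nuclear members higher and 1 lower (all genes 29.9% and 19.9%), monocytes 17 and 2 (24.6% and 19.1%) and macrophages 9 and 3 (28.8% and 19.3%). Without hepatocytes DC had 75 higher and 0 lower of 88 (32.5% and 22.6%), monocytes 74 and 0 (29.5% and 19.6%) and macrophages 50 and 3 (32.9% and 23.2%). The counts of these types thus depended on whether hepatocytes were among the types compared. The mtDNA members were lower in DC in both fits, 11 of 13 with hepatocytes and 10 without, and higher in macrophages, 8 and 12. In monocytes 5 were lower with hepatocytes in the fit and 0 without.

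B cells had 2 nuclear members higher and 55 lower (27.1% and 24.3%), and 3 and 51 without hepatocytes (26.3% and 28%). Endothelial cells had 2 and 56 (32.8% and 28.8%), and 12 and 43 without hepatocytes (36.1% and 32%). No mtDNA member was lower in either type in either fit, while 1 was higher in B cells and 4 in endothelial cells, or 6 and 10 without hepatocytes. NK cells had 0 nuclear members higher and 16 lower (22.5% and 19.3%), and 7 and 16 without hepatocytes (20.4% and 24.2%). T cells had 5 and 11 (31.9% and 23.1%), and the balance turned to 19 and 11 without hepatocytes (29.7% and 27%). All of these T and NK cell shares were near or below those of all genes. In both fits 11 mtDNA members were lower in NK cells and 4 in T cells. Over all types the mtDNA calls fell with a limit of 10% mt- UMIs or without the top 5% of cells by UMIs, as given below.

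**Figure D5:**
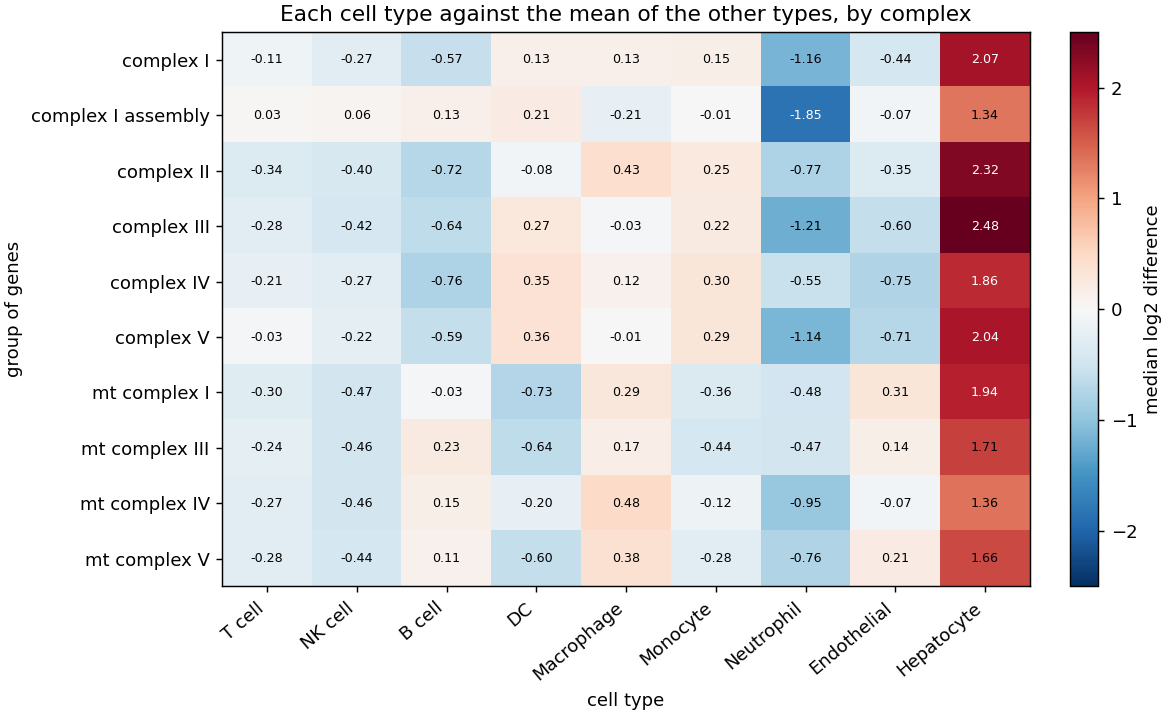
Median log2 difference of each group of members between a cell type and the mean of the other 8 types, over 4 libraries. Hepatocytes are above and neutrophils below 0 in every row, and B and endothelial cells are below 0 in the nuclear complexes I to V.

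Some single subunits differed from the rest of their complex. Cox5a, a subunit of cytochrome c oxidase, was at 370 CPM in NCD macrophages, 473 and 616 in HFD and 496 in JQF (mean 489 ± 101.1, n = 4), 1.35 log2 units above the other types (SE 0.14, edgeR adjusted p = 1.74e-09). Its macrophage values were above those of all other cells pooled in every library, the highest of which was 307 CPM. That pool holds few hepatocytes, whose median difference for complex IV was 1.86, so it does not place macrophages above hepatocytes. In endothelial cells Cox5a lay at 75.3 CPM in NCD, 129 and 129 in the HFD libraries and 132 in JQF (−1.30, SE 0.18, edgeR adjusted p = 2.11e-07). Sdhc, a membrane anchor of complex II, was likewise higher in macrophages (1.03) and lower in B cells (−1.29), while hepatocytes had a median of 2.32 for complex II. Among nuclear members at 20 CPM or more in the type or in the others, Atp5g2, a gene for the c subunit, led in DC (0.96), Ndufb1-ps and Uqcrfs1 in monocytes (0.74 and 0.61, after Ndufaf7 at 1.13), and Ndufaf4 and Ndufs4 in T cells (0.53 and 0.48). Below that level Cox6b2 (2.78) and Ndufaf6 (1.3) were higher in DC, Cox6b2 (2.33) in monocytes and Ndufaf5 (1.02) in T cells. Ndufaf4 was at 1.68 CPM on average in neutrophils (−3.13, SE 0.33, edgeR adjusted p = 1.12e-09), whereas Ndufaf7 was higher in monocytes and neutrophils and lower in macrophages (−1.28), endothelial cells (−1.11), B cells (−0.81) and T cells (−0.54).

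Some tissue isoforms were concentrated in few cells. Cox6a2, known as the heart and muscle form of subunit VIa of cytochrome c oxidase, was at 480 CPM in NCD plasmacytoid DC, 901 and 891 in HFD and 864 in JQF (784 ± 204, SD, n = 4). These cells, which were identified by Siglech and related markers, held 92.2% of its 5119 UMIs, and the other cells together had at most 1.69 CPM in any library. The common form Cox6a1 was at 96.9 CPM in NCD plasmacytoid DC, 165 and 194 in HFD and 209 in JQF. Plasmacytoid DC numbered 32, 25, 217 and 140 cells and were not tested. Cox7a1, another muscle form, had 82.7% of its 2306 UMIs in epithelial cells, a share carried by the 1627 such UMIs of JQF. By library epithelial cells held 26.9% of them in NCD, 64.4% and 30.5% in the HFD libraries and 94.2% in JQF, so that in NCD and HFD replicate 2 most lay in other cells. Its epithelial level was 9.32 CPM in NCD, 51.4 and 14.7 in the HFD libraries and 135 in JQF. The epithelial libraries thus differed widely for Cox7a1, including the HFD pair. In hepatocytes Cox7a1 had 0 UMIs in NCD, 21 and 22 in the HFD libraries and 1 in JQF, at least 3.75-fold higher in HFD against a floor of 3 UMIs in the NCD library. It was the only isoform called in HFD against NCD, but it passed the filter on low counts through the HFD libraries alone. Thinning ended the nuclear calls in hepatocytes, so no weight is put on this call.

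The remaining isoforms were rare. Cox6b2, known from testis, had 51.8% of its 1135 UMIs in DC, at 6.51 CPM in NCD, 10.0 and 8.54 in the HFD libraries and 8.83 in JQF. Cox4i2, the hypoxia-regulated form of subunit IV, had 56 UMIs in NCD, 27 and 33 in the HFD libraries and 40 in JQF, and Ndufa4l2 had 10, 0 and 10, and 12. Cox7b2 and Cox8b had 3 UMIs each, all in NCD, and Cox8c had 0 in all 4 libraries.

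Genes with a like pattern over types and libraries were listed as a description. Among 5826 genes at a mean of 20 CPM or more in the 36 type and library sums, the genes whose log2 level followed the summed nuclear members most closely were Cox6c (Pearson r 0.98), Ndufa2, Ndufs6, Atp5mpl and Atp5j2, each a part of that sum. The first genes outside the set were Mrpl34, Grpel1, Timm13, Park7 and Rnf5, with r from 0.97 to 0.94. Over the same points the nuclear sum followed the ribosomal protein sum less, with r = 0.30. The points differ by type as well as by library, so this r does not show whether both sums move together between libraries.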

How the data were processed

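Liver single-cell libraries from NCD, HFD and JQF mice were analysed from the UMI count matrices that the authors deposited, made with Cell Ranger 6.0.1 on mm10 per the submitters' processing notes. The deposited counts are raw UMIs per gene and barcode. File headers name version 7.0.0 for the cell matrices and 4 for the matrices of all droplets, each alike in all 4 libraries, so whether intronic reads were counted, and whether alike in all libraries, is not given in the sources used here. This bears on every comparison between libraries. No per-sample columns were left unused (0).

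Cells with at least 500 genes and at most 20% mt- UMIs were kept (31290 of 34746 barcodes). A cell took the type with the best mean scaled marker score, with at least 2 markers detected and a score 1.1 times the next. This gate was set after the cells were seen. The members and all gene lists were chosen with earlier results of these data known. Doublets were not called, and leaving out the top 5% of cells by UMIs served as an alternative.

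UMIs were summed per library and type, since cells are not replicates. Group comparisons used edgeR 4.0.16 (TMM, quasi-likelihood, R 4.3.3) in each of 9 types with at least 50 cells per library, on the NCD, HFD and JQF libraries together. Type contrasts used all type sums with the library as covariate, and DESeq2 1.42.0 was an alternative. Adjusted p-values are Benjamini-Hochberg values over all genes tested, with a threshold of 0.05. On simulated T cell counts for HFD against NCD (15123 genes) the procedure recovered 51 of 100 genes changed 2-fold and 99 of 100 changed 4-fold, with 10 false calls.

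Named members were a panel of core subunits, the tissue isoforms and assembly factors, the 3 called members with the largest change in each direction per type at a mean of 20 CPM or more, and the members called in most types. Others are named as parts of counts or for values seen in the data. Depth was 67615639 to 108062769 UMIs per library in kept cells, and types with few cells have the least precise values. Python 3.11.15, pandas 2.3.3 and numpy 2.4.6 were used.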

Additional observations from a re-analysis of the deposited data

Results flagged for a closer look

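In several types the JQF library lay outside both HFD libraries in the summed nuclear members, on different sides in different types. JQF was 0.925 of the HFD mean in NK cells, 0.924 in DC, 0.922 in macrophages and 0.609 in hepatocytes. It was 1.06 times the HFD mean in B cells, 1.09 in neutrophils and 1.06 in endothelial cells. The same held for the summed mtDNA members, where JQF was 1.07 times the HFD mean in T cells and 1.03 in B cells, and 0.881 in NK cells, 0.954 in macrophages, 0.860 in monocytes, 0.824 in neutrophils and 0.878 in endothelial cells. The difference between types was not tested, JQF was a single library, and no single member was called.

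Nuclear OXPHOS UMIs per 100 ribosomal protein UMIs moved in opposite directions between HFD and NCD in different types. The HFD mean was 1.05 times NCD in T cells, 1.04 in NK cells, 1.04 in B cells, 1.29 in DC, 1.43 in monocytes and 1.54 in hepatocytes, with both HFD libraries above NCD. It was 0.866 of NCD in macrophages, 0.900 in neutrophils and 0.801 in endothelial cells, with both below. This difference was not tested either, and the NCD values come from 1 library.

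Droplets of at most 100 UMIs, which enter no comparison, held the nuclear members at 17314 and 21137 CPM in the HFD libraries and 18512 CPM in JQF, above the 8720 CPM of NCD. The mtDNA members there were at 149567 CPM in JQF, above the 89936 CPM of NCD, and at 61824 and 54330 CPM in HFD.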

How the results depend on the processing

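The count of nuclear member and type pairs called in HFD against NCD was 321 and ran from 222 with DESeq2 to 445 without a filter on low counts, with at most 2 lower pairs under any setting. By type the number higher moved more: 10 to 53 around 45 in B cells, 34 to 69 around 55 in DC, 0 to 34 around 22 in endothelial cells, 0 to 83 around 66 in hepatocytes, 47 to 80 around 55 in macrophages, 33 to 57 around 36 in monocytes, 2 to 38 around 20 in NK cells, 0 to 5 around 5 in neutrophils and 12 to 48 around 16 in T cells. The lowest counts came from DESeq2 (B cells, DC, monocytes, NK cells), thinning (endothelial cells, hepatocytes, T cells), a marker score ratio of 1.5 (macrophages) or leaving out cycling cells (neutrophils), and their cause was not tested. The mtDNA pairs numbered 18 (13 to 24), split into 5 higher and 13 lower, 9 and 8 with DESeq2, and 10 and 10 without the top 5% of cells by UMIs. Scaling to library totals without TMM shifted the all-gene median log2 fold change in HFD against NCD by −0.26 in hepatocytes to 0.20 in NK cells, and in JQF against HFD by −0.13 in NK cells to 0.28 in hepatocytes. Under it the median of the nuclear members stayed positive in HFD against NCD in all 9 types.

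For JQF against HFD, without a filter on low counts 1 nuclear pair and 3 mtDNA pairs were called. mtDNA pairs called were also 2 with no limit on mt- UMIs, 1 with at least 1000 genes, 1 without the top 5% of cells by UMIs and 1 with a score ratio of 1.5. In the type contrasts 363 nuclear pairs were called (147 higher, 216 lower), with 250 higher and 184 lower when hepatocytes were left out, and 68 mtDNA pairs, which became 42 with at most 10% mt- UMIs and 32 without the top 5% of cells by UMIs. Leaving out each library in turn gave 295 to 414 nuclear and 47 to 64 mtDNA pairs. The score ratio of 1.5 and the fit without hepatocytes were chosen after seeing the data.

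Leaving out 1 HFD library left no residual degree of freedom in the group comparisons, so only medians were taken. Those of the nuclear members in HFD against NCD stayed positive, with the widest range in hepatocytes (1.87 to 2.19), and moved by over 1.5 times in neutrophils alone, from 0.36 to 0.19 without HFD replicate 2. In JQF against HFD the medians of T cells (−0.10 to 0.20), neutrophils (−0.04 to 0.23) and NK cells (near 0) changed sign with the HFD library used, and those of B cells (0.09 to 0.29) and monocytes (0.05 to 0.21) kept it. Of 216 alternative values of these medians 46 moved beyond the replicate spread. Without TMM the medians near 0 in T cells, NK cells and monocytes changed sign in JQF against HFD. No paired analysis was possible because the groups share only replicate number 1. Depth limits the rare isoforms and the small types, and a single NCD and a single JQF library limit both group comparisons.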

Other observations

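Cycling and other cells were compared in T cells and macrophages. In T cells the nuclear members were at 11369 CPM in cycling and 7219 CPM in other cells in NCD, 15759 and 11949 in HFD replicate 1, 18873 and 13047 in HFD replicate 2, and 17101 and 12325 in JQF. The cycling value was the higher in all 4 libraries, while the mtDNA members per nuclear member were lower in cycling T cells in all 4, for example 2.01 against 3.43 in NCD. In macrophages the cycling value was higher in HFD and JQF and lower in NCD, at 7323 against 7659 CPM. These subsets were set by markers within a type and were not tested.

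Among macrophages, those with lipid-associated markers held 16188 and 16268 CPM of nuclear members in HFD and 15667 in JQF, against 12414 and 14127, and 12088, in those with Kupffer cell markers. The mtDNA to nuclear ratio was lower in the lipid-associated cells in these 3 libraries, at 2.22 and 1.95, and 1.79, against 3.99 and 3.14, and 3.93. NCD had 3 such cells. Within Kupffer-marker cells the nuclear members were at 7280 CPM in NCD, below the other 3 libraries.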
